A study of Mus musculus with 1111 samples.

Results

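The genes described here are 10 antioxidant enzyme genes, Gclm, Gclc, Nqo1, Txnrd1, Srxn1, Prdx1, Prdx5, Sod1, Sod2 and Cat, out of 35583 genes in each deposited table. They were chosen by name as enzymes that remove reactive oxygen species or keep those enzymes working, and all 10 symbols were found once in the tables. The cells were brain microglia, the resident macrophages of the brain, from 3-month-old mice. Plasma proteins carrying NHS-Atto647N, an amine-reactive fluorescent dye, had been injected 20 hours before isolation. Single cells were sorted by their plasma signal into plasma none, plasma low and plasma high, and each cell was made into its own full-length cDNA library by Smart-seq2. All 3 groups came from injected mice. The genotype, strain and sex of the mice, the number of mice and the source of the plasma are not given in the labels used here. Each label carries the letters TH and a number from 1 to 3, whose meaning is not stated. Since no animal is named, a group is a single sample of cells, and no test was run between groups. Errors are the SD over the 3 TH numbers (n = 3), which may be a technical spread.

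Superoxide dismutases convert superoxide to hydrogen peroxide, and catalase and the peroxiredoxins then break down hydrogen peroxide. Peroxiredoxins are kept reduced by thioredoxin and thioredoxin reductase, and their overoxidised form is repaired by sulfiredoxin. Glutathione, the main small thiol of the cell, is made by a pathway whose first enzyme pairs the subunits Gclc and Gclm. Many of these genes are targets of the transcription factor Nrf2 (gene Nfe2l2), which Keap1 marks for degradation and which binds the antioxidant response element, a site that Bach1 can occupy as a repressor. In microglia a large source of superoxide is the NADPH oxidase of phagocytes.

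The core of the antioxidant response element, TGACNNNGC, was searched on both strands of the members' RefSeq promoters (GRCm38.p6), because it is the best known regulatory site of the family. Each promoter spans 250 bases before a gene's start and 50 after it. RefSeq promoters were matched for 9 of the 10 genes, 11 promoters in all, and 5 of the 11 held the core, as did 12.4% of all 32851 promoters. The 4 matches that lie before a start are shown with 25 bases on each side, 5′ to 3′ on the strand of the gene. All 4 genes are on the plus strand. The capitals mark the match, which read GCNNNGTCA on this strand because the core lay on the other strand in each case.
Prdx1, chr4:116685441-116685499: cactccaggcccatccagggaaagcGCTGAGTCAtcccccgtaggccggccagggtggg
Gclm, chr3:122245398-122245456: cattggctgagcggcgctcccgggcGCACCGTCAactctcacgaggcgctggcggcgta
Sod1, chr16:90220681-90220739: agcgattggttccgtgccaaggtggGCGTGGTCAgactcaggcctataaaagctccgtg
Txnrd1, chr10:82859089-82859147: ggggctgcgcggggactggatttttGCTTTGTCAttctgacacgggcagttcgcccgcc
The match in Sod1 lay 56 to 48 bases before the start, and that in Txnrd1 lay 92 to 84 bases before 1 of its 3 listed starts, while those in Prdx1 and Gclm were farther upstream. Srxn1 had its match after the start. The windows of Cat, Nqo1, Prdx5 and Sod2 held no such letters, which says nothing of sites farther away. A match is a run of letters and not a measured binding site.

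Values were found for 1045 of 1111 labelled cells, and 987 passed a filter of 50000 gene reads and 500 detected genes per cell. Plasma none held 35.1% of these, plasma low 35.6% and plasma high 29.4%, or 290 cells. Summed reads per group and TH number ran from 21309816 to 49323522. After each cell was thinned to 50000 reads, the median number of genes per cell was 1449 to 1601.5 over the TH numbers in plasma none, 1622 to 2012 in plasma low and 1644.5 to 1879 in plasma high. The share of reads from mitochondrial genes was 0.548% to 0.659%, 0.721% to 0.878% and 0.751% to 1.153% in the same order. All 8 microglial markers had reads, with summed levels of 45387 to 54371 CPM (a gene's reads scaled to the reads of all genes) over the 9 sums. None of the 5 neutrophil and 6 lymphocyte markers had a read in any group, and 4 of 6 markers of border-associated macrophages, Cd163, Lyve1, Pf4 and F13a1, were at 0 throughout. The other 2 reached at most 22.2 CPM together. The 5 oligodendrocyte markers, with Mog at 0, summed to 21.2 to 68.9 CPM in plasma none, 28.6 to 60.9 in plasma low and 56.4 to 83.4 in plasma high. The 5 neuronal markers reached 58.1 CPM in 1 sum of plasma high, against at most 0.646 for plasma none and 4.88 for plasma low, and the 5 astrocyte markers reached 27.8 CPM in plasma low, against at most 5.40 for plasma none and 4.95 for plasma high. The part of these values in the results was not tested. In every TH number plasma none filled well columns 1 to 8, plasma low 9 to 16 and plasma high 17 onward, so group and plate position cannot be told apart.

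Compared per kilobase of exon and averaged over the 9 sums, the cytosolic dismutase Sod1 was the highest of the 10 genes and the quinone reductase Nqo1 the lowest. The length used was that of all annotated exons of a gene merged, and the order of the lower genes depends on it. Sod2 (10008 bases) and Gclc (3766 bases), for example, averaged 53.3 and 54.4 CPM before scaling by length. Sod1 averaged 85.2 CPM per kilobase over the 9 sums (62.3 to 100.98). The peroxiredoxin genes Prdx5 and Prdx1 followed with 59.7 (36.7 to 79.8) and 59.2 (44.7 to 82.3), and these did not differ beyond their spread. Cat averaged 35.6 (14.5 to 46.6) and Gclc 14.5 (6.29 to 21.2). Sod2 at 5.32 (2.60 to 11.7), Gclm at 4.66 (1.41 to 6.74) and Txnrd1 at 3.72 (0.381 to 7.19) had ranges that overlapped throughout. Srxn1 at 1.67 (0 to 5.75) and Nqo1 at 0.388 (0 to 3.49) were at 0 in at least 1 of the 9 sums. At full depth Sod1 had a read in 59.7% of the 987 cells, Prdx5 in 41.4% and Prdx1 in 39.7%, while each of the other 7 was read in 15.6% of cells or fewer.

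**Figure D1:**
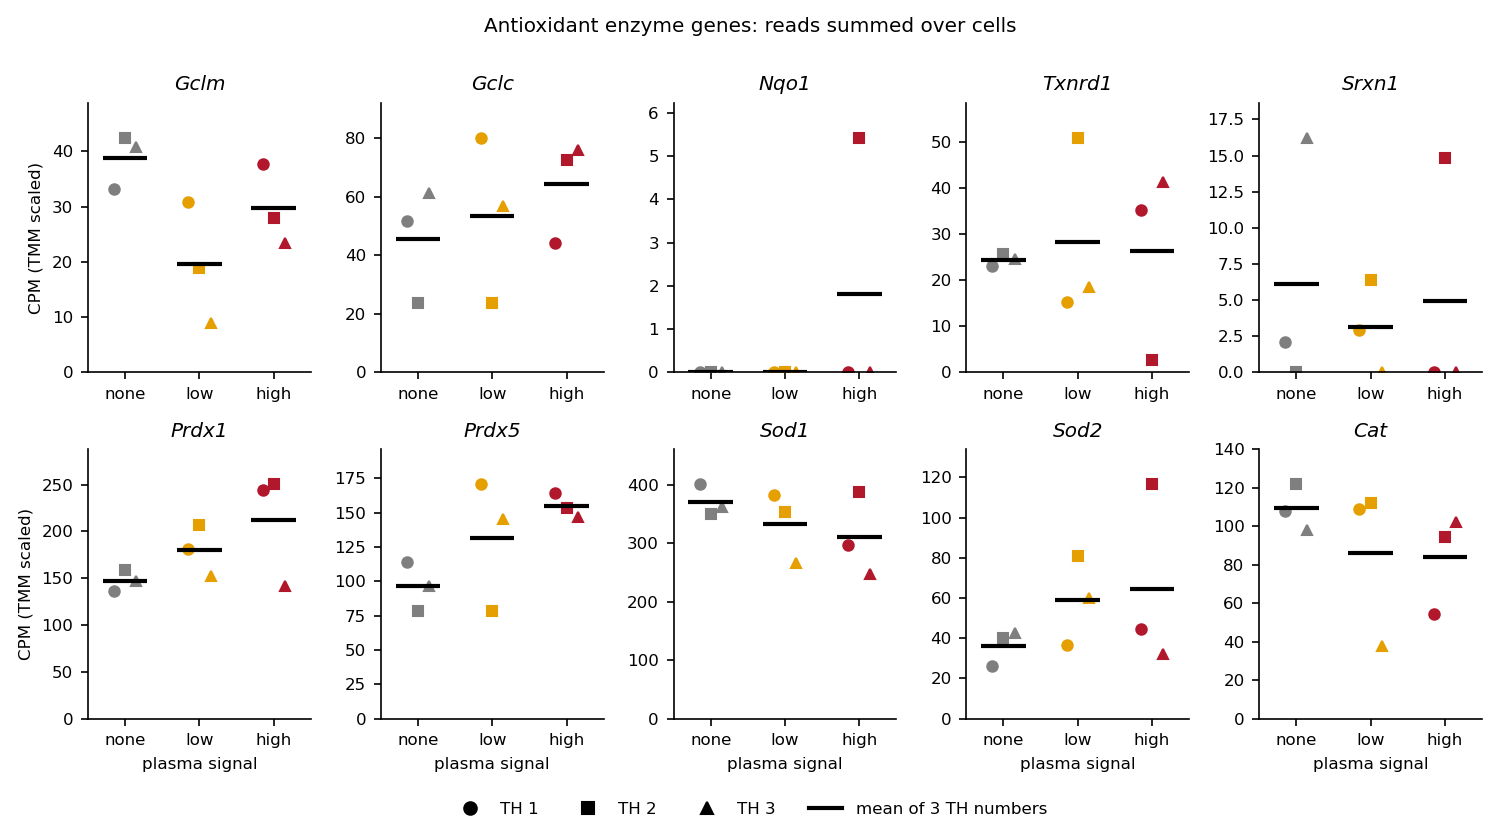
Level of each of the 10 genes in CPM (linear axis from 0) in plasma none, low and high; each symbol is 1 TH number, the sum over its cells, and the bar is the mean of the 3. Prdx5 in plasma high (146.6 to 164.4 CPM) lies above all 3 values of plasma none (78.6 to 114.2), and Gclm in plasma low (8.88 to 30.9) lies below all 3 of plasma none (33.1 to 42.4).

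Of the dismutases, Sod1 (ENSMUSG00000022982, chr16:90220754-90226329, plus strand) encodes the copper and zinc enzyme of the cytosol. Its summed level was 401, 350.4 and 361.8 CPM in TH 1, 2 and 3 of plasma none, 381.7, 352.9 and 265.9 in those of plasma low, and 296.9, 387 and 247.4 in those of plasma high. The groups overlapped, and plasma none had the narrowest range. The log2 ratio within TH numbers was −0.28 ± 0.37 for plasma high against plasma none and −0.17 ± 0.24 for plasma low against plasma none, each smaller than its SD. Sod2 (ENSMUSG00000006818, chr17:13006846-13040063, plus strand) encodes the manganese enzyme of mitochondria. It stood at 26.04, 40.3 and 42.4 CPM for plasma none, 36.8, 80.7 and 59.9 for plasma low, and 44.4, 116.6 and 32.1 for plasma high. Plasma low was above plasma none within each TH number, with log2 ratios of 0.49, 0.99 and 0.49 (mean 0.65 ± 0.29), although the 2 ranges overlapped. Plasma high was above plasma none in 2 of 3 TH numbers (0.62 ± 0.96). A single cell of TH 2 held 3471 of the 7290 Sod2 reads of plasma high (47.6%), and another held 1856 of 6306 in plasma low (29.4%). After leaving out the top cell of every sum, the ratios were 0.39 for plasma high and 0.76 for plasma low, each against plasma none. The Sod2 ratio of plasma low to plasma none was 0.49 without TH 2, below 1.5-fold.

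Cat (ENSMUSG00000027187, chr2:103453849-103485160, minus strand) encodes catalase, the peroxisomal enzyme that splits hydrogen peroxide. Its level was 107.9, 121.8 and 98.01 CPM for plasma none, 108.7, 112.2 and 37.8 for plasma low, and 54.5, 94.6 and 102.5 for plasma high. The lowest value came from TH 3 in plasma low and from TH 1 in plasma high. The mean log2 ratio was −0.42 ± 0.52 for plasma high and −0.49 ± 0.75 for plasma low against plasma none, neither larger than its SD.

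Of the peroxiredoxins, Prdx5 was the 1 gene of the 10 that passed 1.5-fold in plasma high against plasma none. Prdx5 (ENSMUSG00000024953, chr19:6906697-6910106, minus strand) encodes a peroxiredoxin of mitochondria, peroxisomes and cytosol. It was at 114.2, 78.6 and 96.7 CPM for plasma none, 170.7, 78.6 and 145.6 for plasma low, and 164.4, 153.7 and 146.6 for plasma high. Every plasma high value lay above every plasma none value, while plasma low spanned both. Within TH numbers plasma high over plasma none was 0.52, 0.96 and 0.60 in log2, with a mean of 0.69 ± 0.23, and the mean was 0.56 without TH 2, under 1.5-fold. For plasma low against plasma none the mean was 0.39 ± 0.34, with TH 2 at −0.00. In the GENCODE M21 annotation 409 exon bases of Prdx5 (19.1% of its exon length) overlap Trmt112, which lies on the opposite strand, and whether the counting used strand is not given in the sources used here. Reads of the 2 genes may therefore not be told apart in that stretch. The summed level of Trmt112 was 53.4 ± 11.7 CPM in plasma none and 53.5 ± 12.8 in plasma high, with a log2 ratio of −0.00 ± 0.19.

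Prdx1 (ENSMUSG00000028691, chr4:116685544-116700822, plus strand) encodes the abundant cytosolic peroxiredoxin. It was at 135.95, 159.03 and 147.1 CPM for plasma none, 181.65, 206.95 and 152.7 for plasma low, and 244.15, 250.4 and 142.1 for plasma high. TH 1 and TH 2 ordered the groups none, low, high, whereas in TH 3 the 3 groups lay close together. Plasma high over plasma none was 0.84, 0.65 and −0.05 in log2, with a mean of 0.48 ± 0.47, and 0.75 without TH 3. Plasma low was above plasma none in 3 of 3 TH numbers by a smaller mean of 0.28 ± 0.20.

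The genes that service the peroxiredoxins were sparsely read. Txnrd1 (ENSMUSG00000020250, chr10:82833951-82897712, plus strand), the cytosolic thioredoxin reductase, was at 23.1, 25.8 and 24.6 CPM for plasma none, 15.2, 50.9 and 18.5 for plasma low, and 35.2, 2.70 and 41.3 for plasma high. TH 2 stood apart in plasma low, where it was highest, and in plasma high, where it was lowest. On the log2 scale plasma high over plasma none averaged −0.52 ± 2.03, although TH 1 and TH 3 were at 0.58 and 0.73. Srxn1 (ENSMUSG00000032802, chr2:152105516-152111376, plus strand), sulfiredoxin, had reads in 9 cells in all, 4, 2 and 3 of them in the groups none, low and high. Its sums, 2.12, 0 and 16.2 CPM for plasma none, 2.96, 6.39 and 0 for plasma low, and 0, 14.8 and 0 for plasma high, each rest on a few cells, so no ratio is read from them.

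In glutathione synthesis, the catalytic and the modifier subunit of glutamate-cysteine ligase did not follow the same order over the groups. Gclm (ENSMUSG00000028124, chr3:122245557-122270732, plus strand), the modifier, was at 33.1, 42.4 and 40.7 CPM for plasma none, 30.9, 18.9 and 8.88 for plasma low, and 37.6, 28.01 and 23.4 for plasma high. Each plasma low value was below each plasma none value, but TH 1 of plasma low was only just below. The log2 ratios of plasma low to plasma none were −0.10, −1.12 and −2.08, with a mean of −1.10 ± 0.99, and without TH 3 the mean was −0.61. Without the top cell of every sum the TH numbers no longer shared 1 sign. The plasma high ratio to plasma none was −0.39 ± 0.50. Plasma high was above plasma low in 3 of 3 TH numbers (0.71 ± 0.53), yet this ratio was 0.15 without the top cell of every sum. A single cell of TH 2 held 1042 of the 3018 Gclm reads of plasma high (34.5%). About as many cells had a Gclm read in each group, 10.7%, 10.3% and 13.8% in the order none, low and high, with overlapping 95% Clopper-Pearson intervals (7.64% to 14.4%, 7.29% to 13.9% and 10.04% to 18.3%). Gm17494, on the opposite strand, shares 4.71% of the exon length of Gclm and was at 2.02 to 2.91 CPM on average in the groups. Gclc (ENSMUSG00000032350, chr9:77754535-77794485, plus strand), the catalytic subunit, was at 51.7, 23.8 and 61.3 CPM for plasma none, 79.97, 23.7 and 56.9 for plasma low, and 44.3, 72.5 and 75.9 for plasma high. The plasma high ratio to plasma none was 0.55 ± 0.92 and rested mainly on TH 2 (1.57), where plasma none was lowest.

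Nqo1 (ENSMUSG00000003849, chr8:107388225-107403206, minus strand), which reduces quinones and is a widely used readout of Nrf2, was read in 1 of the 987 cells. That cell was in TH 2 of plasma high and held all of its reads, 455 CPM of its own 516577 reads. The share in plasma high was 0.345% of cells (95% Clopper-Pearson interval 0.00873% to 1.91%). In plasma none 0 cells had a read, which allows a share of up to 0.867% of its cells, and in plasma low also 0, which allows up to 0.855%. These last 2 limits are 3 counts of the cells; the upper ends of the 95% Clopper-Pearson intervals are 1.06% and 1.05%. All cover counting error only and overlap between the groups, and 1 cell with reads allows no comparison of Nqo1.

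A gene was counted past a fold when its mean log2 ratio reached that fold and all 3 TH numbers had its sign. A filter kept genes averaging 20 CPM or more that were read in 10% or more of cells in either group. Txnrd1, Srxn1 and Nqo1 did not pass this filter in any comparison, and the other 7 passed in all 3. For plasma high against plasma none 0 members were past 2-fold, where 5.15% of 5534 genes were, and 1, Prdx5, was past 1.5-fold, where 16.3% of genes were. Prdx5 was also the 1 member with plasma high wholly above plasma none, a pattern of 8.51% of genes. For plasma low against plasma none 1 member was past 2-fold, Gclm, lower in plasma low, against 2.64% of 5489 genes, and Sod2 joined it past 1.5-fold, against 10.2%. Sod2 passed the filter only through plasma low, the group where it was higher, with a read in 13.4% of cells against 8.38% in plasma none. Gclm was the 1 member with plasma low wholly below plasma none, a pattern of 4.21% of genes. For plasma high against plasma low 0 were past 2-fold (3.28% of 5709 genes) and 1 was past 1.5-fold (11.1% of genes), Gclm, higher in plasma high, and 0 were non-overlapping (9.67% of genes). The counts of members are thus small, and for plasma high against plasma none they lie near the background. The 3 comparisons share groups and are not independent.

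Over all 10 members the median log2 ratio was 0.10 for plasma high against plasma none and −0.00 for plasma low against plasma none. It was 0.13 for plasma high against plasma low. The medians over all genes tested, which passed the filter, were 0.05, 0.05 and 0.01. Over the 7 members that passed it, they were 0.48, 0.17 and 0.20 in the same order. In plasma high against plasma none 5 of the 10 members were above 0 and 5 below, so the median over all 10 fell in the gap between them. With Nqo1, which is at 0 in plasma none, left out of the 10, it was −0.28. Nqo1, above 0, and Srxn1 and Txnrd1, below 0, did not pass the filter, and no direction is read from them. Of the 7 that passed, Prdx5, Sod2, Gclc and Prdx1 were above 0, and Cat, Gclm and Sod1 were below. These 7 members thus had no common direction.

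**Figure D2:**
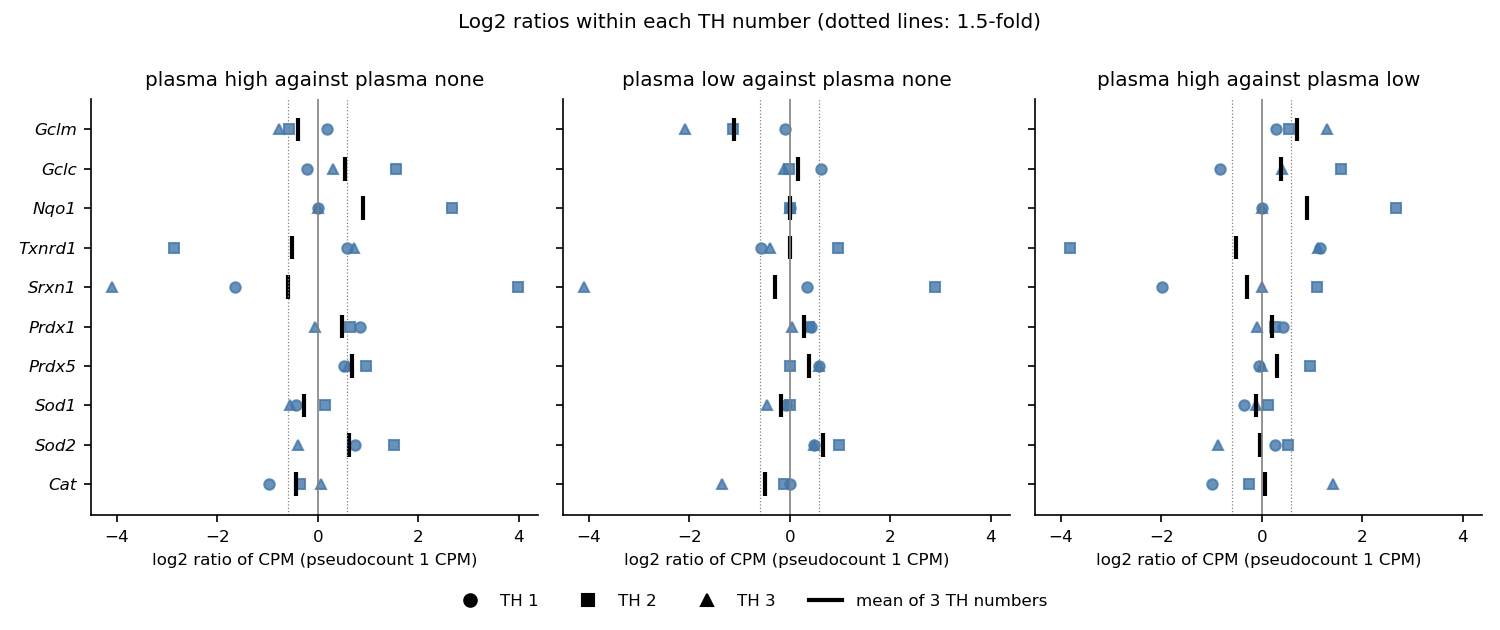
Log2 ratio of CPM (pseudocount 1 CPM) for each of the 10 genes in the 3 comparisons; symbols are TH numbers, bars their mean, the solid line marks no difference and the dotted lines 1.5-fold. Prdx5 lies to the right in all 3 TH numbers for plasma high against plasma none (0.52 to 0.96), while Txnrd1 and Srxn1 scatter to both sides.

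A different order came from the share of cells with at least 1 read after thinning each cell to 50000 reads. Prdx1 was read in 30.2%, 30.97% and 27.4% of plasma none cells, in 41.5%, 45.3% and 43.1% of plasma low cells, and in 44.6%, 44.8% and 38.7% of plasma high cells. Plasma none was thus below both other groups in every TH number, TH 3 included, by 13.2 ± 1.61 percentage points against plasma high and 13.8 ± 2.24 against plasma low. Prdx5 was read in 31.9%, 32.7% and 35.04% of plasma none cells, 53.4%, 27.4% and 42.2% of plasma low cells, and 51.5%, 45.8% and 50.5% of plasma high cells. Its plasma high share was above that of plasma none by 16.1 ± 3.29 points, the largest such difference of the 10 genes, while plasma low varied from 27.4% to 53.4%. Sod1 was read in 51.7%, 52.2% and 51.3% of plasma none cells, 64.4%, 57.3% and 62.9% of plasma low cells, and 63.4%, 67.7% and 54.8% of plasma high cells. The Sod1 difference was 10.2 ± 6.09 points for plasma high and 9.79 ± 4.14 for plasma low, against a summed level that was not higher in either group. Without thinning, the shares in the order none, low and high were 30.9%, 44.4% and 44.5% for Prdx1, 34.1%, 42.2% and 49.3% for Prdx5, and 53.2%, 63.2% and 63.1% for Sod1.

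The other members differed less in their shares. Sod2 was 4.23 ± 4.88 points higher in plasma high and 4.73 ± 2.502 points higher in plasma low, each against plasma none, and Gclc was 3.62 ± 3.93 and 4.45 ± 4.34 points higher. Cat differed by 0.51 ± 3.20 points and Gclm by 0.35 ± 2.30 points between plasma high and plasma none, within their spread. Under a rule chosen after the values were seen (10 points or more, in 1 direction across the 3 TH numbers), plasma high exceeded plasma none for 3 members, Prdx1, Prdx5 and Sod1. Of the 5534 genes tested 6.31% met it, and of the 2272 genes read in at least 20% of cells, the class these 3 belong to, 14.1% did. For plasma low against plasma none the rule held for Prdx1 alone, with 4.99% of 5489 genes and 11.1% of 2307 genes in that class. Without TH 1, or without TH 2, Sod1 no longer met the rule for plasma high. Without TH 2, Prdx5 and Sod1 also met it for plasma low. In plasma high against plasma low 0 members met it (0.245% of 5709 genes). Shares were higher for most genes: the median gene of the frequently read class was 4.26 points higher in plasma high and 4.73 higher in plasma low than in plasma none. The number of genes per cell at equal depth, given above, was likewise higher in both groups than in plasma none; its part in the shares was not tested.

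**Figure D3:**
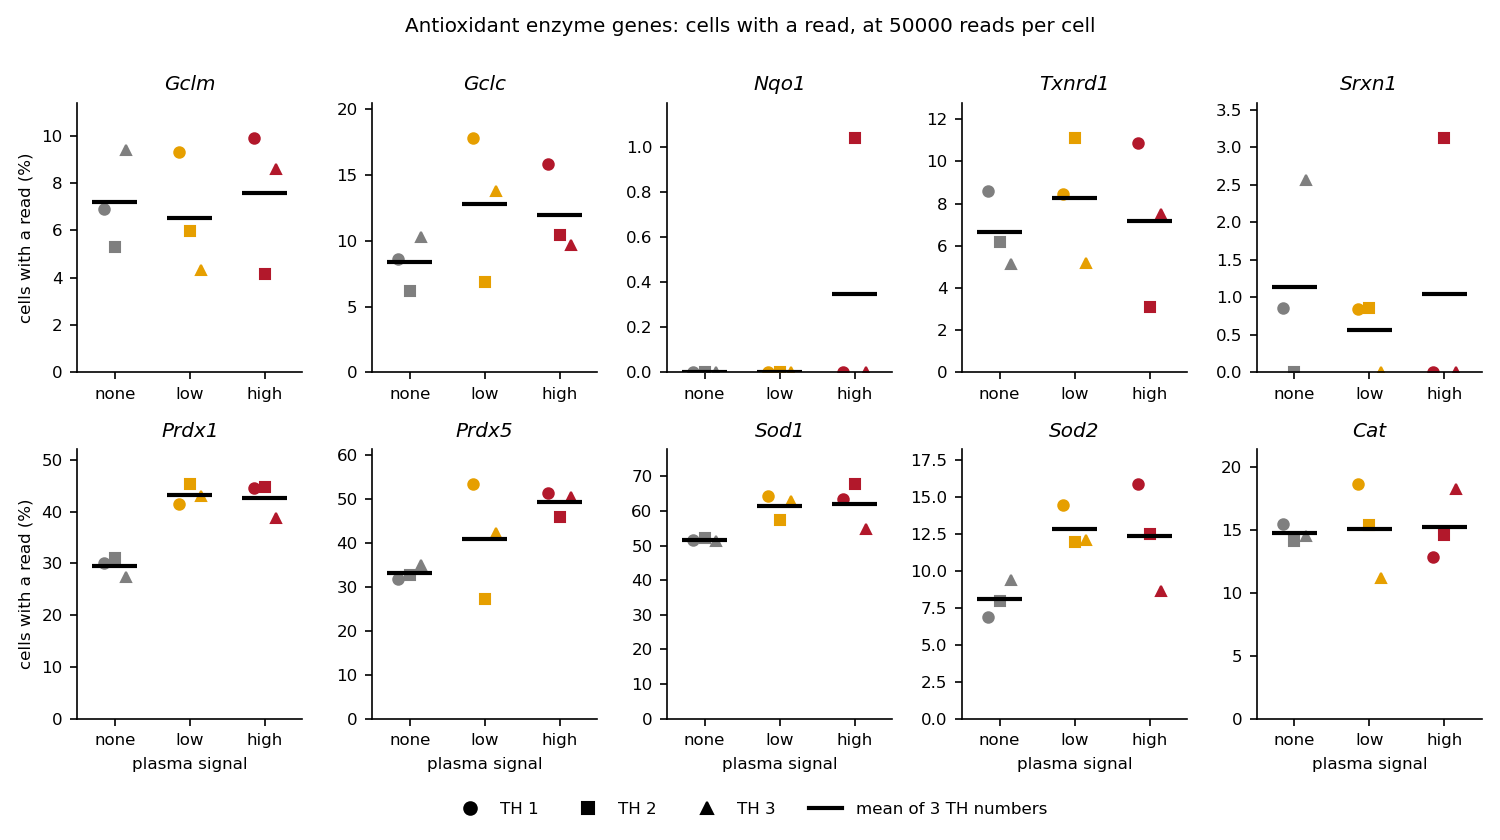
Share of cells with at least 1 read of each gene (percent, linear axis from 0) at 50000 reads per cell; symbols are TH numbers and bars their mean. For Prdx1 all 3 plasma none values (27.4% to 30.97%) lie below those of plasma low (41.5% to 45.3%) and plasma high (38.7% to 44.8%), and Cat lies at a similar share in each group.

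Among cells that had a read, the level of Sod1 was lower in plasma low and plasma high, the groups with the larger shares, and that of Cat was lower in plasma high at a similar share. The median level of Sod1 in such cells at 50000 reads was 540, 560 and 530 CPM for plasma none, 490, 400 and 340 for plasma low, and 440, 460 and 360 for plasma high. Plasma none was above both other groups without overlap, with means of 543 ± 15.3, 410 ± 75.5 and 420 ± 52.9 CPM. The median level of Cat was 740, 840 and 600 CPM for plasma none, 490, 660 and 180 for plasma low, and 440, 470 and 440 for plasma high. Plasma high thus lay below plasma none without overlap, at 450 ± 17.3 against 727 ± 120.6 CPM, with at least 13 cells behind each median, while plasma low overlapped plasma none. These 2 members were lower without overlap in plasma high, as were 12.2% of 3614 genes with at least 10 such cells in each sum, and Sod1 alone was in plasma low, as were 11.4% of 3956 genes. Prdx1 and Prdx5 overlapped in all 3 comparisons, with mean medians of 427 ± 70.2 and 350 ± 55.7 CPM for Prdx1 and 260 ± 34.6 and 226.7 ± 56.9 CPM for Prdx5 in plasma none and plasma high. Within TH numbers the plasma high median was below that of plasma none in 3 of 3 for both genes. At this depth 1 read is worth 20 CPM.

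**Figure D4:**
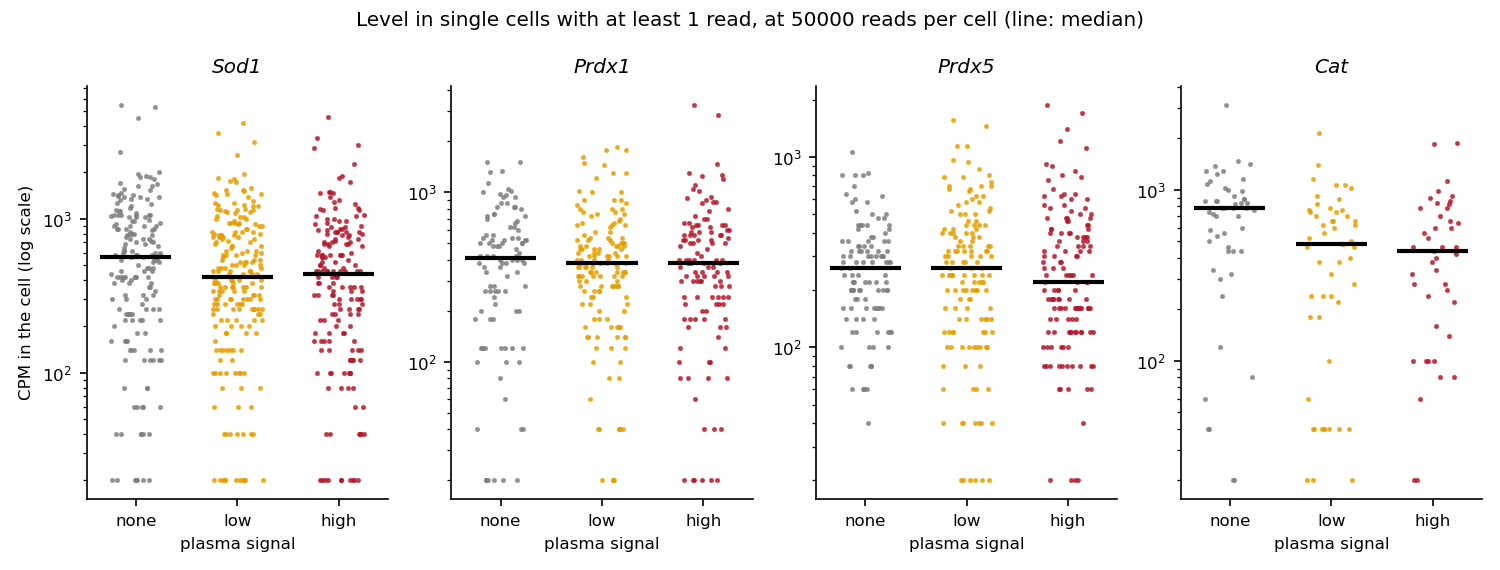
Level of Sod1, Prdx1, Prdx5 and Cat in single cells with at least 1 read, at 50000 reads per cell (CPM, log axis); each point is 1 cell and the line is the median over all such cells of the group. The Sod1 and Cat medians lie highest in plasma none, where the means over TH numbers are 543 and 727 CPM.

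A microglial cell of plasma none had reads of 1.61 ± 0.0463 of the 10 genes at 50000 reads, one of plasma low 2.02 ± 0.242 and one of plasma high 2.10 ± 0.141, with at most 5, 6 and 6 in a single cell. By TH number these means were 1.61, 1.56 and 1.65 in plasma none, 2.29, 1.82 and 1.95 in plasma low, and 2.25, 2.07 and 1.97 in plasma high, so that plasma none did not overlap the other groups. The median number of all genes per cell at this depth, 1449 to 1601.5 in plasma none, likewise lay below the other groups. Those were at 1622 to 2012 in plasma low and 1644.5 to 1879 in plasma high. The part of this in the member means was not tested. None of the 10 genes was read in 14.7% ± 1.80 of plasma none cells, 8.84% ± 3.57 of plasma low cells and 7.22% ± 1.87 of plasma high cells. Prdx1 and Prdx5 were read together in 9.54% (33 cells), 16.5% (58) and 24.5% (71) of the cells, in the order none, low and high. These joint shares pool the TH numbers. Pooled in the same way, the share of each gene alone was also higher in plasma low and plasma high than in plasma none. The part of the single shares in the joint shares was not tested. Across cells within the sums, Prdx1 and Prdx5 were close to unrelated. The catalytic and modifier subunits Gclc and Gclm were read together in 2, 1 and 4 cells of the same groups.

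Across cells, the members were close to unrelated at this sparse depth. Spearman correlations within the 9 sums, averaged, lay between −0.05 and 0.09 for the 28 pairs with values, with a median of 0.02. The genes most like each frequently read member were sought among genes read in at least 20% of cells. For Prdx5 they were Trmt112, the overlapping gene, at 0.298 (0.113 to 0.51 over the 9 sums), and Tmed5 at 0.131. For Prdx1 they were Akr1a1 (0.131), Arpc5 (0.127) and Ostf1 (0.125), and for Sod1 they were Rpsa (0.148), Nucb1 (0.122) and Rbm7 (0.119). All were taken at 50000 reads per cell. Apart from Trmt112 these values are weak, and they are given as a description only.

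The wider pathway was described with 50 other genes of glutathione, thioredoxin and peroxiredoxin metabolism, NADPH supply and Nrf2 control. Of these, 5 had no read in a passing cell and 27 passed the filter for plasma high against plasma none. In that comparison 0 of the 27 were past 2-fold, 2 were past 1.5-fold higher (9.34% of all genes tested) and 1 lower (6.98%). The higher ones were Taldo1, transaldolase of the pentose phosphate pathway, and Gpx1, the main cytosolic glutathione peroxidase. The lower one was Cul3, the ubiquitin ligase scaffold that works with Keap1. The median over all 50 genes was 0.03, and over the 27 that passed the filter 0.07, beside 0.05 over all genes tested. Taldo1 was at 108.99, 94.1 and 64.97 CPM in plasma none and 147.35, 158.03 and 137.2 in plasma high, with no overlap (log2 ratio 0.75 ± 0.32), and plasma low gave a like ratio of 0.73 ± 0.03. Gpx1, named after its values were seen, was at 211.9 ± 7.32 CPM for plasma none, 260.8 ± 18.6 for plasma low and 334.5 ± 46.4 for plasma high, a log2 ratio of 0.65 ± 0.19 for plasma high against plasma none. Cul3 was at 48.4 ± 8.07 CPM in plasma none and 31.4 ± 2.33 in plasma high (−0.60 ± 0.34).

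For plasma low against plasma none 25 of the 50 passed the filter, with Taldo1 and Park7 past 1.5-fold higher (6.03% of all genes tested) and Cul3 lower (4.19%). For plasma high against plasma low 27 passed, with the peroxiredoxin genes Prdx2 and Prdx6 past 1.5-fold higher (5.48%) and Prdx3 and Prdx4 lower (5.66%). Of these, Prdx6 passed the filter only through its share of cells in plasma high, the group where it was higher. Prdx6, the peroxiredoxin with 1 active cysteine, had the largest mean ratio of plasma high to plasma none among pathway genes averaging 20 CPM or more, 1.58 ± 2.01, and it came from TH 2, where plasma none was at 4.61 CPM against 42.6 and 25.9 in TH 1 and 3. Gsto1, an omega-class glutathione transferase, had 0.85 ± 0.79. Prdx4, the peroxiredoxin of the endoplasmic reticulum, had −0.68 ± 0.98. Glrx2, the mitochondrial glutaredoxin, was at 32.6, 49.2 and 37.4 CPM in plasma none and 7.87, 14.8 and 13.1 in plasma high (−1.68 ± 0.24) without overlap, but it was read in too few cells to pass the filter (8.09% and 5.17%).

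Of the regulators, Nfe2l2 and Keap1 overlapped in all 3 comparisons. Nfe2l2, which encodes Nrf2, was at 223.9, 334.5 and 175.6 CPM for plasma none, 250.9, 252.9 and 226.8 for plasma low, and 201.8, 115.7 and 227.15 for plasma high. In log2, plasma high over plasma none was −0.43 ± 0.98, with TH 2 lowest, and 47.4% and 49.3% of cells had a read. Keap1 was at 50.6 ± 15.1 CPM in plasma none and 60.3 ± 23.02 in plasma high (0.23 ± 0.87). Bach1 was at 67.4 ± 39.3 and 86.4 ± 10.2 CPM (0.52 ± 1.03). Each of these 3 ratios to plasma none was smaller than its SD over TH numbers. Bach1 lay higher in plasma high, at 91.4, 93.1 and 74.7 CPM, than in plasma low, at 66.2, 52.4 and 70.97 CPM, without overlap (0.45 ± 0.37), though under 1.5-fold.

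**Figure D5:**
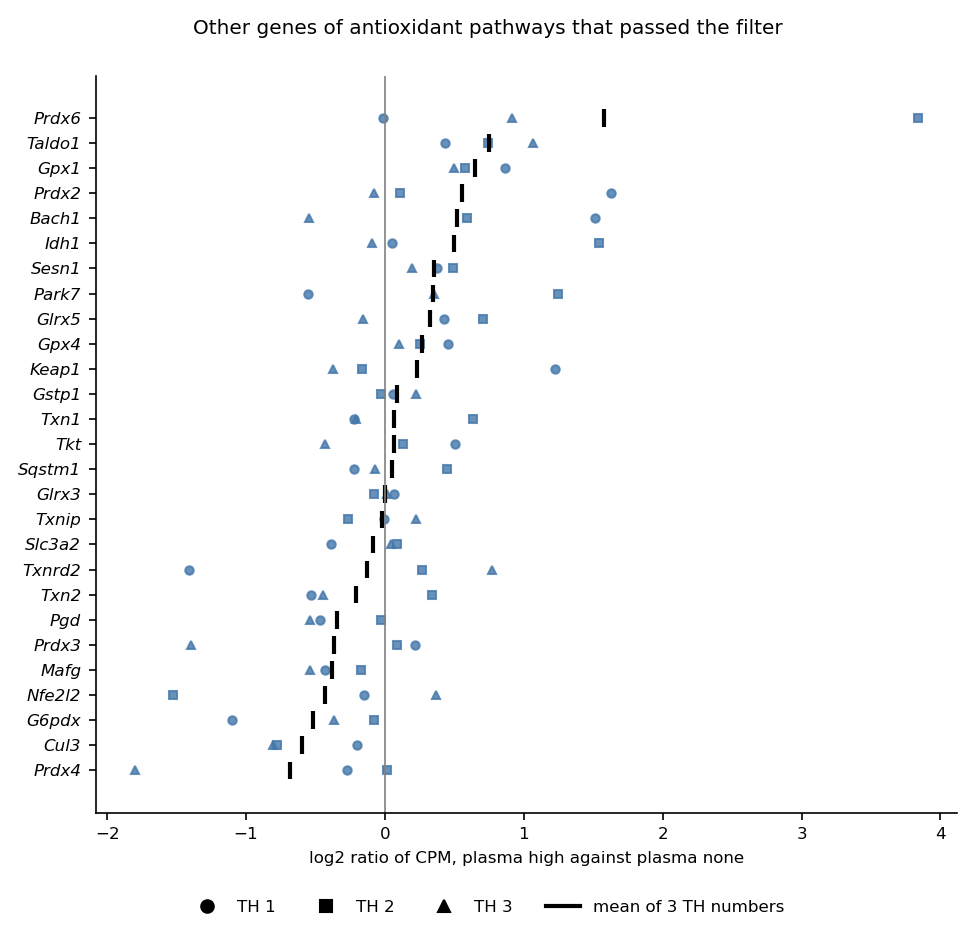
Plasma high over plasma none (log2 ratio) for the 27 other antioxidant pathway genes that passed the filter, ordered by mean; symbols are TH numbers and bars their mean. Taldo1 and Gpx1 lie above 0 and Cul3 below 0 in all 3 TH numbers, and the single TH 2 value of Prdx6 (3.84) lies far from its other values.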

How the data were processed

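Smart-seq2 read counts per gene and cell were taken as the authors deposited them, 1 table for each TH number. Per the file headers the TH 2 and TH 3 columns came from alignments reduced to top hits, with no such note for TH 1. In 1 column of TH 3 the deposited values were handled like expected counts, because 2 were not whole, and were rounded. Per the submitters' processing notes, bcl2fastq, Trim Galore, STAR 2.5.3a, Seurat and mm10 were used. The counting tool, its strand setting and its treatment of reads that match several copies of a gene are not given in the sources used here. Columns were matched by well and TH number, and 66 labelled cells were not analysed here.

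Passing cells (at least 50000 reads and 500 genes) were summed by group and TH number into 9 sums, from 21309816 to 49323522 reads, and scaled to CPM with TMM factors (edgeR 4.0.16, R 4.3.3; Python 3.11.15). Log2 ratios used a pseudocount of 1 CPM, which understates the ratio of low genes, and were averaged over TH numbers. Genes were compared with fold thresholds of 2 and 1.5 only, with no p-value. Shares of cells and levels in positive cells used cells thinned to 50000 reads, with 95% Clopper-Pearson intervals and a floor of 3 counts, which cover counting error only. Exon lengths are from GENCODE M21, where 99.6% of 35546 shared IDs had identical coordinates. The ratio and 1.5-fold calling steps were tested on simulated sums, in which every gene met the share-of-cells filter. The summing of cells and the TMM scaling were not part of that test.

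All 10 members were named. From the 50 pathway genes the 3 largest and 3 smallest ratios of plasma high to plasma none at a mean of at least 20 CPM, and Nfe2l2, Keap1 and Bach1, were named, with genes counted past a fold added. For members read in at least 20% of cells, the 3 genes with the highest Spearman correlation were named, except 1 that is not reported here. The members and lists were chosen with earlier results of these data known. Alternatives were other scalings (library size, DESeq2 1.42.0 size factors, no mitochondrial genes), pseudocounts, cell and gene filters, per-cell means, the top cell or the outermost wells left out, and each TH number left out.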

Additional observations from a re-analysis of the deposited data

How the results depend on the processing

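The log2 ratio of each member was recomputed under 13 alternatives per comparison. Prdx5, Prdx1, Sod2 and Gclc stayed above 0 and Gclm, Sod1 and Cat below 0 for plasma high against plasma none in all 13, with Prdx5 between 0.56 and 0.78. Prdx5 stayed past 1.5-fold in each except without TH 2. Members past 1.5-fold there numbered 1, but 2 with the mean of per-cell CPM (Prdx5, and Cat lower), 2 after leaving out each sum's top cell (Prdx5 and Gclc) and 2 with the outermost wells left out (Prdx5, and Cat lower), and 0 (without TH 2) to 4 (without TH 3) with 1 TH number left out. Past 2-fold the count was 0, and 0 to 1 with 1 TH number left out (Sod2 at 1.13 without TH 3). For plasma low against plasma none, Gclm was past 2-fold, but 0 members were with a pseudocount of 5 CPM or the top cell left out, and 0 (without TH 3) to 1 with 1 TH number left out. With the mean of per-cell CPM the 1 member past 2-fold was Sod2 (1.01), and Gclm was not counted past either fold. The mean Gclm ratio lay between −1.6 and −0.61 in all 13 alternatives, beyond 1.5-fold in size. Past 1.5-fold the count of 2 became 1 with cells of at least 100000 reads and 1000 genes, 1 with the top cell left out, and 1 (without TH 2) to 3 (without TH 1, Cat joining lower) with 1 TH number left out. For plasma high against plasma low, the count of 1 past 1.5-fold became 0 with a pseudocount of 5 CPM, 0 with the mean of per-cell CPM and 0 with the top cell left out. Without TH 1 the 1 member was Gclc, and without TH 3 it was Cat, lower, in place of Gclm. Without TH 1 the Gclm ratio was 0.92, and Gclm left the count only because its mean level fell under the filter of 20 CPM. With 1 TH number left out, the median over the 10 members ranged from 0.021 to 0.71 for plasma high against plasma none, −0.13 to 0.24 for plasma low against plasma none and −0.011 to 0.52 for plasma high against plasma low. Members past the 10-point share rule, with alternatives added after seeing the data, numbered 2 with all reads of each cell (main 1) and 1 to 3 with 1 TH number left out for plasma low against plasma none, 2 with all reads (main 3) for plasma high against plasma none, and 0 to 1 for plasma high against plasma low. For Nqo1, Srxn1 and Txnrd1 the small number of cells with a read limits what can be compared. The causes of these differences were not tested.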
